A study of Mus musculus with 25 samples.

Results

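Regions at the loci of 4 genes of the Notch pathway, the receptors Notch2 and Notch3 and the ligands Jag1 and Dll1, were read from 9 deposited lists. A region is a member if it overlaps by 1 bp or more a window around its gene: chr3:97770000-98010000 for Notch2, chr17:32205000-32355000 for Notch3, chr2:136850000-137000000 for Jag1 and chr17:15450000-15565000 for Dll1 (build mm9). The windows hold 170 of the 222320 regions of all lists, with 104 at Notch2, 28 at Notch3, 24 at Jag1 and 14 at Dll1. These loci, and a cluster of N1/RBP regions near 97.95 Mb of chromosome 3 that the rule names, were selected on list membership and score in these same data. All values below are therefore descriptions without a test. Whether a region is exonic, intronic or intergenic was not analysed here; in GRCm38.p6 the flanking protein-coding genes are Gm5544 and Adam30 for Notch2, Rrp1b and Ephx3 for Notch3, Slx4ip and Btbd3 for Jag1, and Ermard and Fam120b for Dll1.

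All 25 libraries were made from mK4 cells, an established mouse line with its origin in the embryonic kidney. In split DamID (SpDamID), parts of the bacterial adenine methylase Dam are fused to 2 proteins, and GATC sites are marked where the proteins come together. In each pair the first protein carries the D part and the second the AM part with Ert2, the hormone-binding domain of the oestrogen receptor. The pairs were N1/RBP, N1/MAML and N1/p300 with 3 libraries each, N1/N1 with 2, and Mef2c/MAML and Mef2c/p300 with 1 each. N1 stands for Notch1, RBP for its DNA-binding partner, MAML for the co-activator of that pair and p300 for an acetyltransferase that MAML recruits. Mef2c is a MADS-box transcription factor outside the pathway. The 3 Dam control libraries served as the reference for all 6 SpDamID lists. Open chromatin was read by FAIRE in cells labelled N1wt, with 3 libraries and 1 input, beside 3 control FAIRE libraries. Myc-tagged N1 was read by chromatin immunoprecipitation (ChIP) in 1 library, with 1 input. The strain label is CD1 for 23 libraries, CD2 for 1 N1/N1 library and CD3 for the Mef2c/MAML library. The libraries of a group are merged into 1 value per region, so replicate error cannot be given, and the depth behind a region is unknown.

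Notch receptors sit in the membrane and are cleaved when a ligand of the Jagged or Delta-like family on a neighbouring cell binds them. The freed intracellular part enters the nucleus, where it joins RBP and MAML on DNA and recruits p300. Genes that encode receptors and ligands are themselves known as targets of Notch signalling in several tissues. In the developing kidney, Notch2 is required for proximal nephron segments, and Jag1 and Dll1 are expressed in the early nephron. Notch3 is best known from vascular smooth muscle and pericytes.

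SpDamID reads the genome only at GATC sites, so the sequence before each gene's start is shown with these sites in capitals. Each run is the 250 bases before a RefSeq start, from GRCm38.p6, whose positions cannot be set against the mm9 positions of the lists. All 4 genes matched, Dll1 with 2 starts. The search was for GATC and for TGGGAA, the core of the RBP motif, on both strands, and capitals mark every match.
Notch2, chr3:98013288-98013537, plus strand: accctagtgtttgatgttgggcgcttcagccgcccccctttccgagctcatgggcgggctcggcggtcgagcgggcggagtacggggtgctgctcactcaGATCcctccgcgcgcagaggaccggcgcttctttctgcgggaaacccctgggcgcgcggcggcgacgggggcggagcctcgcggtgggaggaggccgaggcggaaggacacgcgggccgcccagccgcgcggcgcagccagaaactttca
Notch3, chr17:32166891-32167140, minus strand: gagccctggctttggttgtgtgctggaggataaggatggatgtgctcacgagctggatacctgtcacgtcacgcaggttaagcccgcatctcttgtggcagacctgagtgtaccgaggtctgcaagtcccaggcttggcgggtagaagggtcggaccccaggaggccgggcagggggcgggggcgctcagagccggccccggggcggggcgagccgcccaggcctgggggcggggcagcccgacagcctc
Jag1, chr2:137116521-137116770, minus strand: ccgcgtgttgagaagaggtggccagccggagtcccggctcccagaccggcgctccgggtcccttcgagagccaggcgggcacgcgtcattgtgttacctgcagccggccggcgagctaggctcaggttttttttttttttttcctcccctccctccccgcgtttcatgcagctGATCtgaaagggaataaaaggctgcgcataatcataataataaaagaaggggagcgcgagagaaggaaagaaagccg
Dll1 (start 1), chr17:15375824-15376073, minus strand: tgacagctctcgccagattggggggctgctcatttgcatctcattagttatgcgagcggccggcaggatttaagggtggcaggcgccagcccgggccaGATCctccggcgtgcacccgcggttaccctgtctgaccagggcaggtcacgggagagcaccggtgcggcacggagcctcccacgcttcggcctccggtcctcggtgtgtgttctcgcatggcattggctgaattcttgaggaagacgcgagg
Dll1 (start 2), chr17:15376933-15377182, minus strand: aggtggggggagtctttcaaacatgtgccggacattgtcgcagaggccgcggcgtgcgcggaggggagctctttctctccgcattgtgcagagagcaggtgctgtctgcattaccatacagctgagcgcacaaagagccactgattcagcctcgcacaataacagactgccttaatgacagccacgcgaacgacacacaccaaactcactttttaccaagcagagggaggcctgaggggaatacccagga
The runs of Notch2, Jag1 and Dll1 (start 1) hold 1 GATC each, and those of Notch3 and Dll1 (start 2) hold 0. Of 32851 RefSeq starts, 41.9% have a GATC in the same 250 bases. None of the 5 runs holds TGGGAA, which 21.6% of all starts have.

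The windows held 73 distinct SpDamID fragments, that is, regions with the same ends counted once across the 6 lists. Notch2 had 47 of them, Notch3 12, Jag1 8 and Dll1 6. Per 100 kb this was 19.6 at Notch2, 8.0 at Notch3, 5.33 at Jag1 and 5.22 at Dll1, against 3.65 over the whole series. Among consecutive 240-kb tiles of the genome, 0.692% held at least as many fragments as the Notch2 window. For tiles of the size of the other windows, the share was 16.8% for Notch3, 29.0% for Jag1 and 29.7% for Dll1. Since the loci were chosen on these same lists, nothing is read from these shares.

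**Figure D1:**
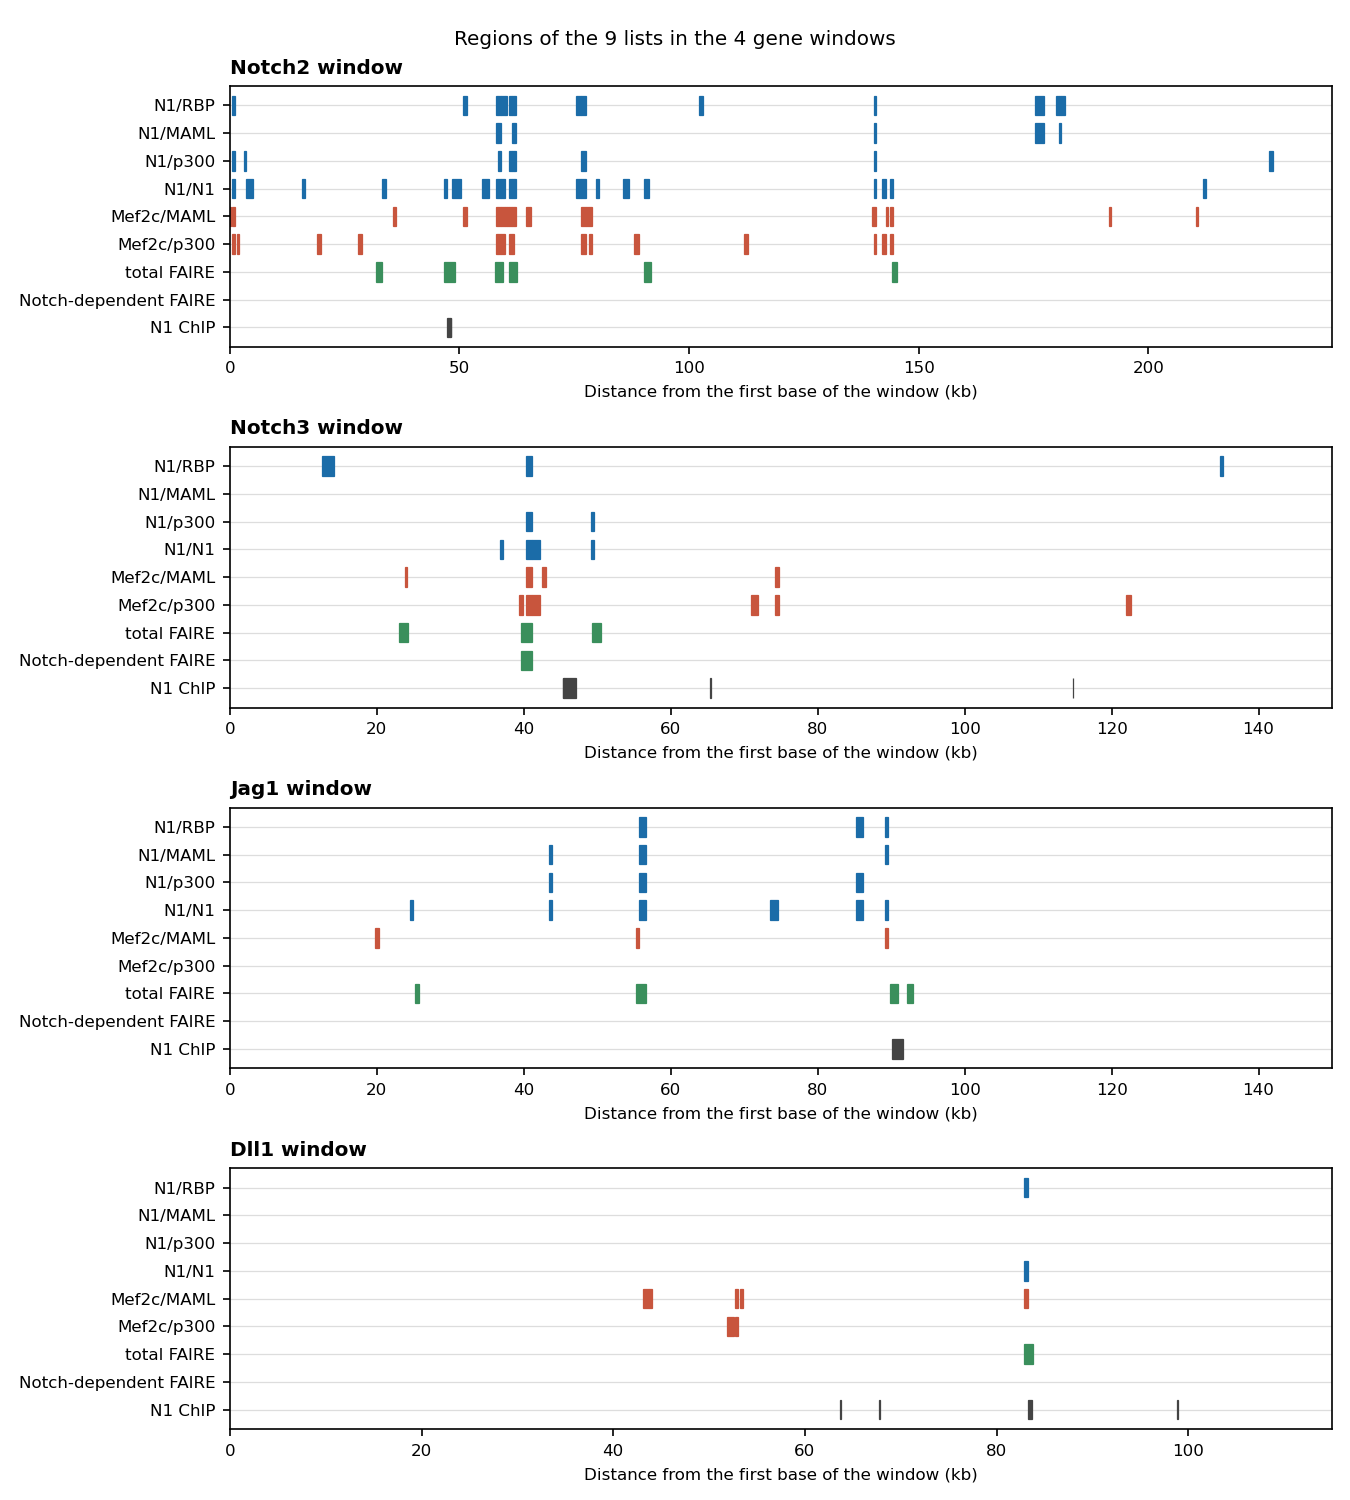
Regions of the 9 lists along each window, with distance from the window's first base in kb on the x axis and 1 row per list (blue N1 complexes, red Mef2c complexes, green FAIRE, grey ChIP). Regions pile up near 60 kb in the Notch2 window, N1 regions at Jag1 lie mostly without Mef2c regions, and the Dll1 window has 1 place with N1 regions.

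The windows differed in which complexes marked them. At Notch2, 17 fragments were in N1/RBP, 7 in N1/MAML, 9 in N1/p300, 22 in N1/N1, 23 in Mef2c/MAML and 16 in Mef2c/p300. As shares of its fragments these were 36.2, 14.9, 19.1, 46.8, 48.9 and 34.0%. The same shares over all 96409 fragments were 29.3, 17.2, 23.2, 33.1, 52.3 and 29.8%. N1/N1 stood highest above its share in the series. The other receptor, Notch3, had 3 fragments in N1/RBP, 0 in N1/MAML, 2 in N1/p300, 4 in N1/N1, 4 in Mef2c/MAML and 6 in Mef2c/p300. Jag1 had 3 each in N1/RBP, N1/MAML, N1/p300 and Mef2c/MAML, 6 in N1/N1 and 0 in Mef2c/p300. Dll1 had 1 each in N1/RBP and N1/N1, 0 in N1/MAML and in N1/p300, 5 in Mef2c/MAML and 2 in Mef2c/p300.

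Fragments in N1 lists and no Mef2c list made up 5 of 8 at Jag1, 18 of 47 at Notch2, 4 of 12 at Notch3 and 0 of 6 at Dll1, against 32.5% of all fragments. Fragments in Mef2c lists alone were 2 at Jag1, 16 at Notch2, 6 at Notch3 and 5 at Dll1, against 41.5%. The 2 ligand loci lay at opposite ends of this order. Fragments in both N1 and Mef2c lists were 1 at Jag1, 13 at Notch2, 2 at Notch3 and 1 at Dll1, against 26.0%. With so few fragments, 1 or 2 of them shift a share by many points at every locus but Notch2. Fragments in a single list were 46 of 73 (63.0%), near the 60.1% of the whole series, of which 17 were in Mef2c/MAML alone and 13 in N1/N1 alone. At Notch2, 10 of 47 fragments were in N1/N1 alone, against 10.4% of all fragments, and 10 in Mef2c/MAML alone, against 23.6%. The N1/N1 list rests on 2 libraries, 1 with the CD2 label, and the part of that in these counts was not tested.

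**Figure D2:**
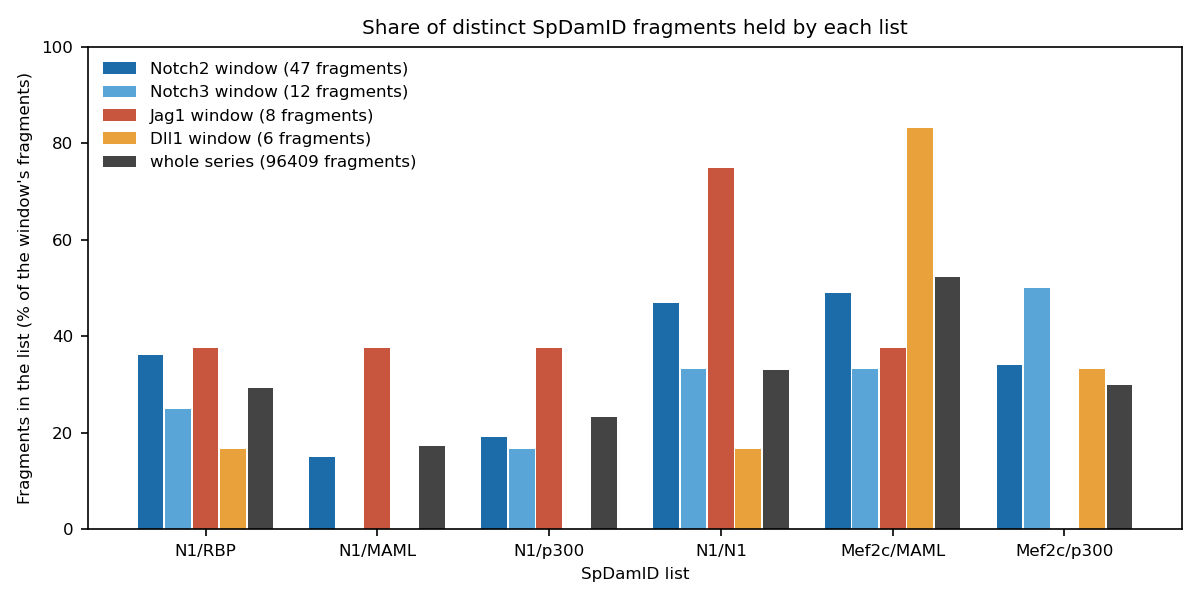
Share of the distinct fragments of each window, and of the whole series, that each SpDamID list holds (y axis, percent; a fragment can be in several lists). Jag1 has 6 of its 8 fragments in N1/N1 and 0 in Mef2c/p300, and Dll1 has 5 of 6 in Mef2c/MAML.

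Scores were compared within a list, since the sources do not say whether the lists share a scale. At Notch2 the median N1/RBP score was 434, with the highest at 854, against a list median of 332. The 3 Notch3 fragments of that list had a median of 220, those of Jag1 559, and the Dll1 fragment scored 546. For N1/N1 the medians were 332.5 at Notch2, 302 at Notch3 and 370.5 at Jag1, against 285 for the list. For Mef2c/MAML they were 344 at Notch2, 198 at Notch3, 334 at Jag1 and 330 at Dll1, against 350. The Notch2 median for N1/RBP includes the 4 regions of the cluster, which were chosen for their scores. Without them it was 363 over 13 regions, near the list median.

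All 4 N1 lists held 5 of the 73 fragments, 4 at Notch2 and 1 at Jag1, against 5.94% of all fragments. Total FAIRE overlapped 18 fragments (24.7%, against 19.3% of all fragments), 11 at Notch2, 4 at Notch3, 2 at Jag1 and 1 at Dll1. Notch-dependent FAIRE, the peaks that the authors set apart as depending on Notch, overlapped 2 fragments (2.74%, against 2.80%), both at Notch3. Of the 14 total FAIRE regions, 10 overlapped a fragment of at least 1 N1 list, against 56.5% in the series, and 3 overlapped all 4 N1 lists, against 16.9%.

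At the receptor gene Notch2, 3 of 47 fragments (6.38%) were in all 6 lists, against 3.01% of all fragments. Of the 3, 2 lay in an unbroken run of 8 fragments, chr3:97828046-97832238, each starting at the base after the last. The series held 81270 runs when a fragment with no adjoining one was counted as a run too. Of these, 2422 had 3 or more fragments and 3 had 8 or more. The second fragment of the run, 97828485 to 97829089, was in all 6 lists, with N1/RBP at 600, N1/MAML at 455, N1/p300 at 389, N1/N1 at 431, Mef2c/MAML at 574 and Mef2c/p300 at 381. Its N1/RBP score exceeded 96.0% of that list. The seventh, 97831463 to 97831932, scored 561, 524, 551, 477, 590 and 383 in the same order. Its Mef2c/MAML score exceeded 92.2% of that list, and its Mef2c/p300 score 69.8%. The eighth, 97831933 to 97832238, was in all 4 N1 lists with scores of 34, 215, 305 and 316, and in Mef2c/MAML with 358. Its N1/RBP score exceeded only 3.28% of the list. Between these, the fragment 97830328 to 97830731 was in Mef2c/MAML alone, at 335. That fragment and the one before it, 97829840 to 97830327, in N1/RBP at 331 and Mef2c/MAML at 343, were in fewer lists than any other of the run.

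Open chromatin covered both ends of the run and not its middle. A total FAIRE region at 97827789 to 97829410 had a MACS score of 185.28, above 59.3% of that list, and the next, at 97830847 to 97832467, had 221.22, above 69.0%. Both overlapped fragments of all 6 SpDamID lists, and neither overlapped a Notch-dependent FAIRE region or an N1 ChIP region. No Notch-dependent FAIRE region lay in the Notch2 window. The other 4 total FAIRE regions of the window had N1/N1 as their only N1 list, against 6.62% of total FAIRE regions in the series. Among them was the window's highest peak, 97860173 to 97861791, with a MACS score of 446.30 and an N1/N1 score of 156 in the fragment it overlapped. Some of these overlaps were contacts at an edge. The FAIRE region 97801909 to 97803105 met only the start of the N1/N1 fragment 97803096 to 97804070. With an overlap of 50% of the shorter region required, 4 of the 6 FAIRE regions of the window overlapped an N1 fragment. Without the N1/N1 list, 2 of the 6 FAIRE regions still overlapped an N1 fragment, the 2 over the run.

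The fourth Notch2 fragment in all 4 N1 lists lay outside open chromatin. At 97910282 to 97910698 it had N1/RBP at 257, N1/MAML at 484, N1/p300 at 460, N1/N1 at 372, Mef2c/MAML at 575 and Mef2c/p300 at 156. The highest N1/N1 score of the window, 546, belonged to a fragment in no other list, 97818290 to 97820412, which overlapped a total FAIRE region. The highest Mef2c/p300 score, 540, also belonged to a fragment in that list alone, 97881994 to 97882861. For Mef2c/MAML the highest was 610, at the first fragment of the run, and for N1/p300 it was 551, at the seventh.

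Away from the run, further Notch2 fragments were shared by N1 and Mef2c complexes. Such fragments were 27.7% of the window's fragments, near the 26.0% of the whole series. Near the window's start, 97770521 to 97771120 had N1/RBP at 399, N1/p300 at 393, N1/N1 at 349, Mef2c/MAML at 603 and Mef2c/p300 at 496. A second run of 3 fragments, 97846574 to 97848757, began with a fragment that had N1/RBP at 434, N1/p300 at 241, N1/N1 at 290, Mef2c/MAML at 251 and Mef2c/p300 at 475. Both lay outside FAIRE and lacked N1/MAML. At the edge of the FAIRE region 97914286 to 97915179, with a MACS score of 144.76, the fragment 97913838 to 97914368, most of which lay outside it, had a low N1/N1 score of 114 beside Mef2c/MAML at 538 and Mef2c/p300 at 473. The fragments in N1/N1 alone were spread from 97773496 to 97982578, with scores of 67 to 546.

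The cluster that the rule names lay at chr3:97945428-97951844 and held 4 N1/RBP regions that cover 3860 of 6417 bp, joined where gaps were up to 5 kb. Their N1/RBP scores were 845 at 97945428 to 97947248, 819 at 97949806 to 97950456, 854 at 97950457 to 97950975 and 825 at 97950976 to 97951844. They ranked 2, 6, 1 and 4 of the 28281 regions of the N1/RBP list, whose 95th percentile is 589. The first and the third were also in N1/MAML, with scores of 493 and 562, below the 95th percentile of 651. No fragment of the cluster was in N1/p300, N1/N1 or a Mef2c list. The nearest Mef2c/MAML region was 9614 bp away and the nearest Mef2c/p300 region 31060 bp. For N1/N1 the nearest region was 30029 bp away and for N1/p300 34730 bp. The nearest total FAIRE region lay at 30249 bp and the nearest N1 ChIP region at 127227 bp. The 4 regions of the cluster thus had no counterpart in open chromatin, in ChIP or in the N1 dimer list.

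Of the other 6 regions among the 10 highest N1/RBP scores, 3 shared that trait and 3 did not. The 3 that shared it, chr6:46479230-46480718, chr5:54043432-54044979 and chr4:49362469-49364912, had N1/RBP scores of 818, 815 and 812 and were not in N1/N1. Over the whole list, N1/RBP regions outside N1/N1 scored lower, with a median of 229 over 11651 regions against 412 over the 16630 inside it. None of the 3 overlapped a FAIRE region or a region of the ChIP list, which is labelled as repeat-masked. The 3 that did not share it lay on chromosome 2 between 26315080 and 26320456, were in all 4 N1 lists and overlapped Notch-dependent FAIRE. Whether the cluster's signal comes from binding of N1 and RBP here or from DNA of the introduced fusion constructs was not tested. Its scores should not be read as showing either. The same was not tested for the other 6 regions either, those on chromosome 2 included. The genes at their positions were not determined, since gene positions of mm9 were not used. Whether any of the 6 lies at the own gene of a fused protein is therefore not known here. The list does not show whether all 3 N1/RBP libraries carried the signal of the cluster.

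**Figure D3:**
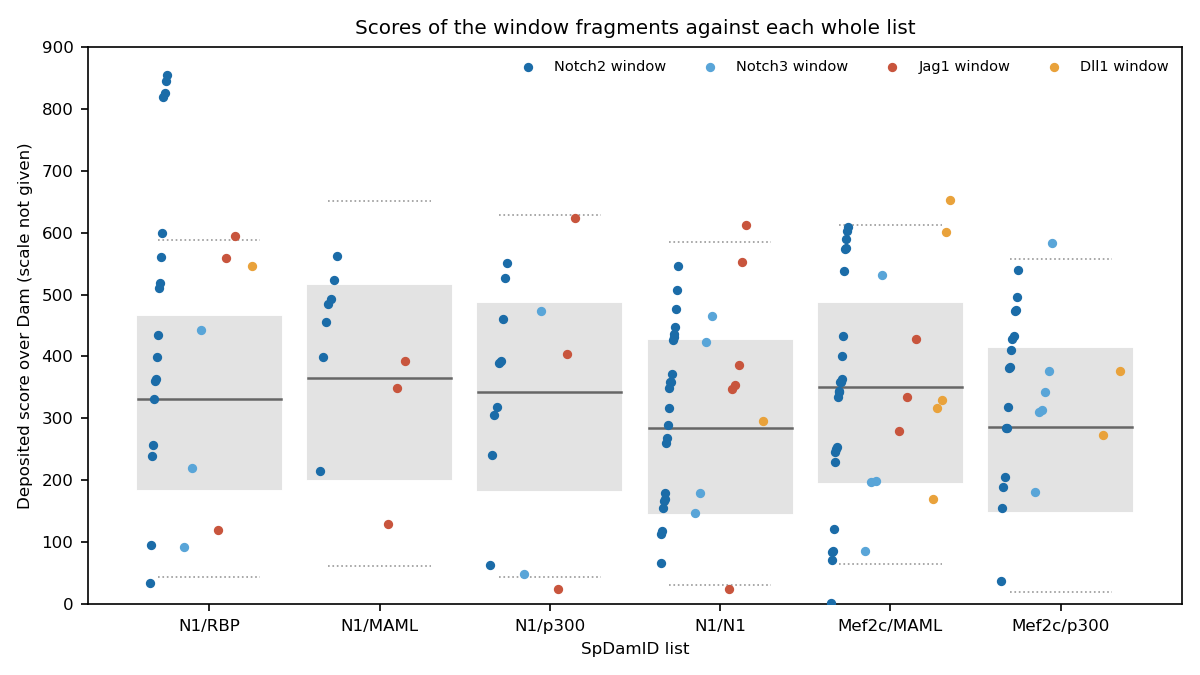
Deposited score over Dam (y axis) of each window fragment in each SpDamID list, coloured by gene. Grey boxes span the 25th to 75th percentile of the whole list, the line its median and dotted lines its 5th and 95th percentiles; 4 Notch2 points in N1/RBP, 819 to 854, stand above all other points.

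At the receptor gene Notch3, 4 fragments were in N1 lists only and 2 in both N1 and Mef2c lists, and 1 FAIRE region was Notch-dependent. N1/MAML had no region in the window and no fragment was in all 4 N1 lists. The Notch-dependent FAIRE region, chr17:32244639-32246062, had a MACS score of 145.34 in its own list, above 56.6% of it. The same coordinates scored 255.30 in total FAIRE, above 75.7%. In the series, 11.7% of total FAIRE regions overlapped a Notch-dependent one, and here it was 1 of 14 over the 4 windows. It overlapped 2 fragments. The fragment 32245343 to 32246104 had N1/RBP at 220, N1/p300 at 49, N1/N1 at 466, Mef2c/MAML at 532 and Mef2c/p300 at 584. The other, 32244289 to 32244887, was in Mef2c/p300 alone, at 343. At the only Notch-dependent peak of the 4 loci, this window thus had its highest N1/N1, Mef2c/MAML and Mef2c/p300 scores. It did not have its highest N1/RBP or N1/p300 score there. In the same fragment those scores, 220 and 49, exceeded 30.6 and 6.22% of their lists.

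A second Notch3 fragment with 2 N1 complexes, 32254221 to 32254576, scored 473 for N1/p300 and 424 for N1/N1, and was in no other list. It overlapped a total FAIRE region, 32254340 to 32255528, with a MACS score of 440.16. The highest FAIRE score of the 4 windows, 513.55 at 32228036 to 32229221, went with 1 fragment, 32228876 to 32229145, in Mef2c/MAML alone at a score of 86. The highest N1/RBP score at Notch3, 442 at 32339707 to 32340209, belonged to a fragment in no other list and outside FAIRE.

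At Jag1, a ligand gene, 6 fragments were in N1 lists and 1 of them was also in a Mef2c list. The fragment in all 4 N1 lists, chr2:136905721-136906581, had N1/RBP at 559, N1/MAML at 349, N1/p300 at 404 and N1/N1 at 613, above 91.2, 47.7, 60.7 and 96.9% of those lists. It was in neither Mef2c list. It overlapped a total FAIRE region, 136905330 to 136906582, with a MACS score of 196.57. The same FAIRE region overlapped a Mef2c/MAML fragment, 136905259 to 136905618, with a score of 334, so the peak was marked by N1 and by Mef2c on neighbouring fragments.

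Further Jag1 fragments were in 3 N1 lists each, and all of them lay outside FAIRE. The fragment 136893399 to 136893835 scored 130 for N1/MAML, 624 for N1/p300 and 387 for N1/N1. The next, 136935172 to 136936157, scored 595 for N1/RBP, 24 for N1/p300 and 552 for N1/N1. The last, 136939198 to 136939607, had N1/RBP at 119, N1/MAML at 393, N1/N1 at 354 and Mef2c/MAML at 429. The N1/RBP score of 595 exceeded 95.6% of its list and the N1/p300 score of 624 exceeded 94.5%, so the highest scores of those lists at Jag1 fell on fragments that lacked the other complex or held it at a low score. The remaining fragments were in N1/N1 alone, at scores of 24 and 348, or in Mef2c/MAML alone, at 279. Of the 4 total FAIRE regions of the window, 3 overlapped no SpDamID fragment. In the series this held for 37.9% of total FAIRE regions.

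The other ligand gene, Dll1, had 1 fragment in any N1 list. At chr17:15532816-15533319 it scored 546 for N1/RBP, above 89.2% of the list, 296 for N1/N1 and 330 for Mef2c/MAML. It overlapped the only FAIRE region of the window, 15532888 to 15533773, with a MACS score of 322.53, above 84.9% of total FAIRE. Neither N1/MAML nor N1/p300 had a region at Dll1. The other 5 fragments lay between 15493127 and 15503553, outside FAIRE, and were in Mef2c lists alone. Their leading scores were 653 for Mef2c/MAML at 15503210 to 15503553, above 98.4% of the list, and 601 for Mef2c/MAML with 377 for Mef2c/p300 at 15502704 to 15503070. Both Mef2c lists rest on 1 library each, and no FAIRE library with a Mef2c fusion was analysed here.

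**Figure D4:**
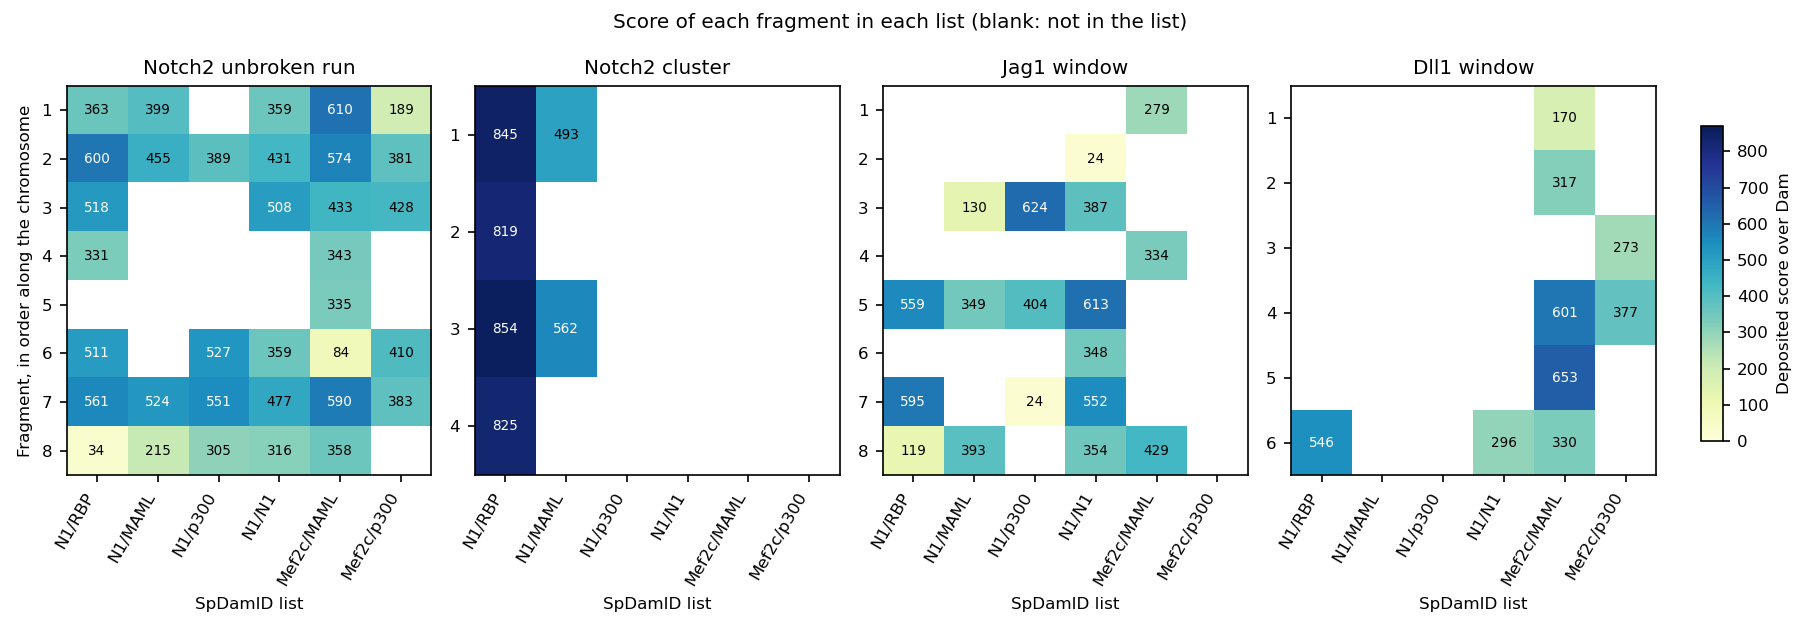
Score of each fragment (rows, in order along the chromosome) in each SpDamID list (columns), for the run and the cluster at Notch2 and for all fragments of Jag1 and Dll1; blank cells are fragments not in the list. The cluster holds N1/RBP scores of 819 to 854 with 2 N1/MAML scores, while the run has scores in all 6 lists, with blank cells for some fragments.

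N1 ChIP regions lay in all 4 windows. The windows held 15 ChIP regions, 4 at Notch2, 5 at Notch3, 2 at Jag1 and 4 at Dll1, which join into 9 unbroken stretches. None of the 15 overlapped an SpDamID fragment, and overlap was rare in the series as well, at 6.10% of ChIP regions. ChIP regions overlapped total FAIRE in 6 of 15, against 25.5%, and 2 of 15 adjoined an SpDamID fragment with no base between, against 17.1%. Over the series, 1361 ChIP regions overlapped a fragment and 1361 fragments overlapped a ChIP region. Whether ChIP regions have their ends at the same sites as the fragments was not tested. Neither the lack of overlap nor the adjoining ends are therefore read as a result about position. The input signal was the fixed value 0.1 in all 15, and in 20103 of the 22307 ChIP regions of the series. Each of the 15 ratios is therefore the ChIP signal on another scale and says nothing of the input.

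The strongest ChIP signal was at Notch2. There, 4 adjoining regions form a stretch of 889 bp, chr3:97817313-97818201, with ratios of 21.4, 30.8, 19.9 and 17.3 and ChIP signals of 2.14, 3.08, 1.99 and 1.73. The second exceeded 90.5% of ChIP regions. The stretch lay inside the total FAIRE region 97816556 to 97819039, which had a low MACS score of 72.31, above 10.1% of the list. It filled all but the last bases of the space between 2 fragments of the N1/N1 list, 97816542 to 97817312 with a score of 118 and 97818290 to 97820412 with 546, and no other SpDamID list had a region there. At Jag1, a stretch of 1458 bp, chr2:136940098-136941555, had ratios of 14.0 and 16.0. Its first region overlapped a total FAIRE region with a MACS score of 185.41 and no SpDamID fragment, and lay 491 bp from the nearest N1 fragment, the one at 136939198. At Dll1, the ChIP region chr17:15533320-15533699 had a ratio of 14.8. It began at the base after the N1/RBP and N1/N1 fragment and lay in the same FAIRE region. The other 3 Dll1 regions, with ratios of 11.6 to 14.5, lay 14959 to 19066 bp from the nearest N1 fragment. The Notch3 regions, with ratios of 12.4 to 20.0, lay outside FAIRE and 2160 to 19937 bp from an N1 fragment, and the one at 20.0 is 8 bp long. ChIP and the N1 complexes thus met within the same open region at Notch2 and Dll1, in regions that did not overlap. Total FAIRE regions with ChIP were 3 of 14, against 18.5% in the series, and they had 1, 0 and 2 N1 lists at Notch2, Jag1 and Dll1.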

How the data were processed

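The data are 9 region lists, each merging the libraries of a group (as a median, by the track names, for 3 of the N1 lists but not N1/N1). Per the file headers, the authors scored each SpDamID region over Dam at a confidence level of 0.999 or more, on a scale that none of the sources explains. Lists were matched to complexes by initials. FAIRE scores are the authors' MACS scores, per the file headers, and the selection behind the Notch-dependent list is unstated. For ChIP the authors deposited a signal for ChIP and input and their ratio. Build mm9 is per the submitters' processing notes; aligner and versions: not given in the sources used here.

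FAIRE starts were raised by 1, unplaced contigs left out, and regions read as 1-based with both ends included (Python 3.11.15, pandas 2.3.3). Overlap means 1 bp or more. The overlap code was tested on simulated data. Distances between regions run from end to start. No test was made. Members, windows and lists were chosen with earlier results of these data known. Named were the highest fragment per list, fragments in all 4 N1 lists, Notch-dependent FAIRE, ChIP (up to 3 per window, or as ranges) and the cluster; other fragments were named after their values were seen. Positions in genes, the nearest FAIRE region to a gene start and further pathway genes were not analysed here, since gene positions of mm9 were not used. RefSeq sequences are of GRCm38.p6.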

Additional observations from a re-analysis of the deposited data

How the results depend on the processing

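Of 77 alternative values for 18 results, 61 stayed within 1.5 times the value given. With scores from each list's median up, distinct fragments were 24 at Notch2, 7 at Notch3, 5 at Jag1 and 3 at Dll1, fragments in all 4 N1 lists were 2 at Notch2 and 0 at Jag1, and FAIRE regions with an N1 fragment were 3 at Notch2. With regions within 500 bp merged, Notch2 had 31 stretches and Dll1 had 3, and 2 at Notch2 were in all 4 N1 lists. Among ChIP regions of at least 300 bp, 1 was left at each of the 4 loci. In alternatives chosen after seeing the data, 2 FAIRE regions at Notch2 kept an N1 fragment without the N1/N1 list, and Dll1 had 3 fragments without Mef2c/MAML. Windows widened or narrowed by 25 kb and the other overlap rules moved no count by more than 1.5 times. The cluster held 3 or 4 N1/RBP regions in every alternative. Lists with no counts give no depth, and absence from a list does not show absence of signal.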

Other observations

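Marked fragments continued across the start of the Notch2 window. Just outside its start, 97769071 to 97769864 had N1/RBP at 407, N1/p300 at 546, N1/N1 at 373, Mef2c/MAML at 474 and Mef2c/p300 at 638. It adjoins the first fragment inside, 97769865 to 97770287, in Mef2c/MAML alone at 86. At the other edges the first fragments outside lay 2519 to 46026 bp away. The one before the Notch3 window, 32201746 to 32202481, was in N1/RBP, N1/p300, N1/N1 and Mef2c/MAML, with scores of 142, 317, 332 and 466. The one before the Jag1 window, 136832114 to 136832754, was in 5 lists, with N1/RBP at 439 and Mef2c/MAML at 477.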
